A study of Homo sapiens with 6 samples.

Results

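The genes described here are 43 genes of the autophagy machinery, taken by gene name from a table of 60623 genes measured by RNA-Seq in TC28a2 cells. TC28a2 is an immortalized human chondrocyte line. The cells received 2 μM mocetinostat, an inhibitor of class I histone deacetylases (HDACs), or its solvent DMSO for 24 hours, and the comparison asks which genes the inhibitor changes. Each condition had 3 samples, which the study describes as independent experiments, and they came from a single cell line that was kept in culture, not from cartilage. All 43 members were present in the table and passed the expression filter, which left 13966 genes to test. The members were divided by their role into initiation (6 genes), nucleation (6), lipid transfer and WIPI proteins (6), conjugation (11), the ATG8 family (5), cargo receptors (5), mitophagy receptors (2), and inhibitors of mTOR (2).

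Autophagy encloses cytoplasm in a double membrane, the autophagosome, which then fuses with a lysosome so that its contents are degraded. The ULK1 kinase complex starts the process, the lipid kinase complex around *BECN1* and *PIK3C3* marks the site of membrane growth, ATG2, ATG9, and WIPI proteins supply lipid, and a ubiquitin-like conjugation system attaches ATG8 proteins to the membrane, where receptors such as *SQSTM1* bring cargo. The kinase mTOR holds the ULK1 complex inactive while nutrients are plentiful. In articular chondrocytes autophagy is regarded as a protective process that declines with age and in osteoarthritis.

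Totals per sample ranged from 4873426 to 11031132 counts with DMSO and from 1619344 to 5089542 with mocetinostat, and the smaller libraries limit the precision for low genes in the treated samples. Levels are given in CPM, which are counts divided by the library size in 1e+06 reads after TMM scaling, and the variation between replicates was 9.3% (biological coefficient of variation). Of 9 chondrocyte markers 6 passed the expression filter, and all 6 rose (100%, against 32.9% of all genes tested). *SOX9*, the master transcription factor of cartilage, was already at 95.5 to 122 CPM with DMSO, whereas *COL2A1*, the main collagen of cartilage, was low there (1.46 to 2.80 CPM). Of 12 markers of other cell types, the T cell gene *CD3E* had 0 counts in every sample, and 8 were testable. Of these 8, 7 rose (87.5%, against 32.9% of all genes tested), from *CDH1* (0.208 to 0.295 CPM with DMSO and 16.6 to 22.9 CPM with mocetinostat) to *KRT8* (489 to 620 and 1125 to 1162 CPM). The summed level of these 12 genes was 510.4 to 635.5 CPM with DMSO and 1255 to 1272 CPM with mocetinostat, most of it *KRT8*, and that of the 9 chondrocyte markers was 109 to 132 and 244 to 280.1 CPM. Their part in the values below was not tested. In bulk RNA, a change in the number of cells of a type and a change in RNA per cell cannot be told apart.

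Of the 43 members, 13 rose (30.2%) and 10 fell (23.3%) with edgeR's quasi-likelihood test at a Benjamini-Hochberg adjusted p under 0.05, and 20 did not pass. Of all genes tested, 32.9% rose and 31.4% fell by the same rule. With the thresholds of the study, which add an absolute log2 fold change over 1, 3 members (6.98%) were upregulated, namely *GABARAPL1*, *ATG16L2*, and *DEPTOR*, against 20.2% of all genes tested. No member was downregulated (0%), against 8.18% of all genes tested. With edgeR and with DESeq2, 0 members had a log2 fold change under -1, and at an unadjusted p under 0.05 edgeR gave 13 lower members. The log2 fold change lay within 1 in either direction for 40 members (93.0%) and for 71.2% of all genes tested. The samples of the conditions did not overlap for 28 members (65.1%), 15 higher and 13 lower with mocetinostat, whereas 66.5% of all genes tested did not overlap. The median log2 fold change of the members was 0.05 and that of all genes tested was -0.0021. These counts depend on depth and scale. With every library thinned to the smallest total, 9 members rose and 1 (*WIPI2*) fell. Per *GAPDH*, a glycolytic enzyme often used as a reference, 29 members rose, 0 fell, and 12 were upregulated. Of all 13966 genes tested, 55.2% were higher, 9.82% were lower, and 4425 were upregulated with this scaling, which moved the median of all genes by 0.54. *GAPDH* itself had a log2 fold change of -0.53. Its level was 3132, 3032, and 2953 CPM with DMSO and 2034, 2187, and 2111 CPM with mocetinostat.

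**Figure D1:**
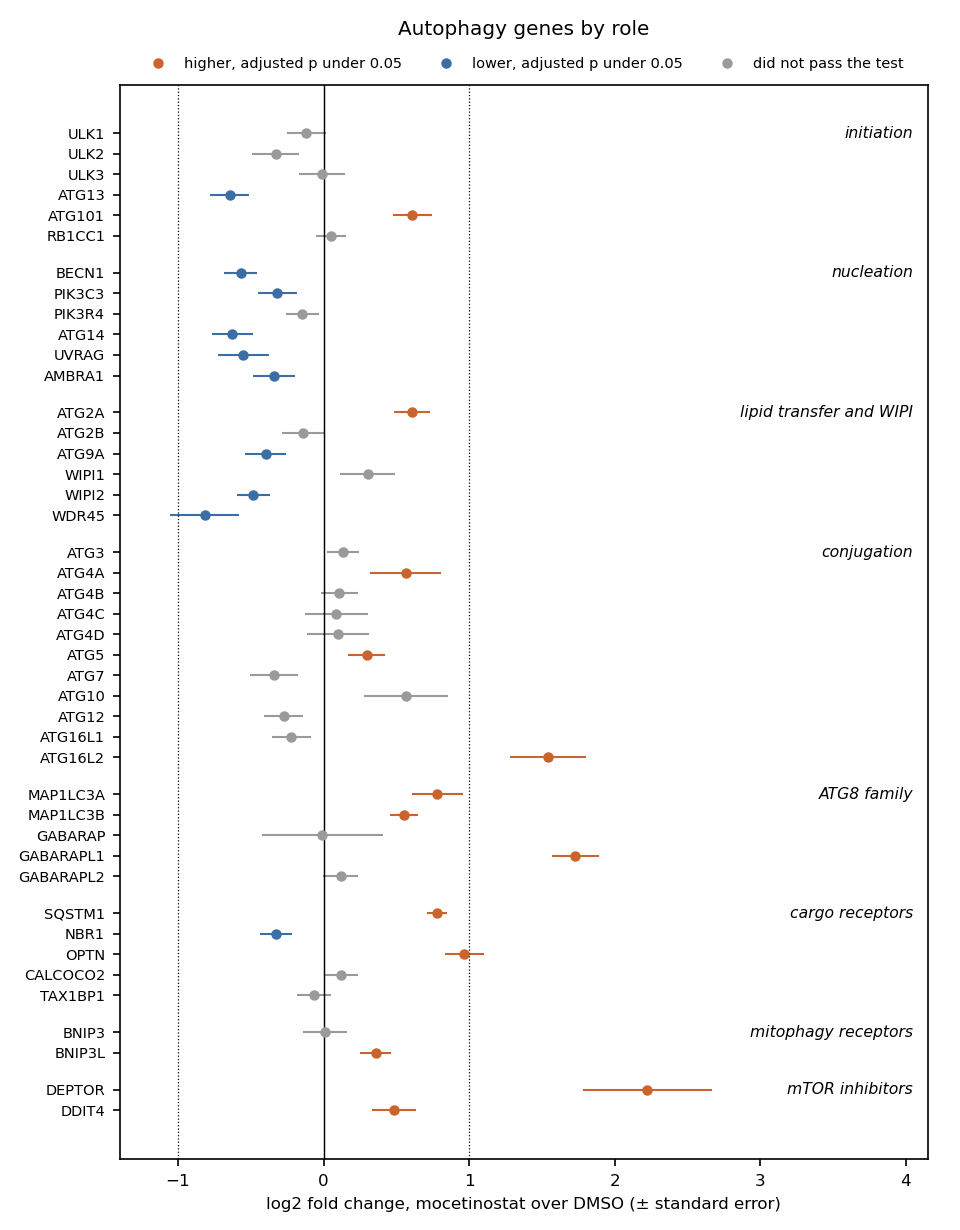
Log2 fold change of each of the 43 autophagy genes, mocetinostat over DMSO (points, with the standard error as a bar), ordered by role, with dotted lines at the threshold of 1 in each direction and colors for the edgeR test. The points for 40 genes lie between the dotted lines, those for *GABARAPL1*, *ATG16L2*, and *DEPTOR* lie to the right of them, and the 6 nucleation genes all lie left of 0, of which 3 turned positive per *GAPDH*.

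ATG8 proteins are small ubiquitin-like proteins that become attached to lipid on the growing membrane and serve there as docking sites. Of the 5 members 3 rose, *MAP1LC3A*, *MAP1LC3B*, and *GABARAPL1*, 0 fell with edgeR or DESeq2, also at an unadjusted p under 0.05, and *GABARAP* and *GABARAPL2* did not pass the test. The 3 that rose are 60.0% of the family, and of all genes tested 32.9% rose and 31.4% fell with edgeR. *GABARAPL1* (ENSG00000139112, chr12:10212458-10223128, plus strand, GRCh38) was at 21.6, 12.5, and 19.6 CPM in the DMSO samples and at 64.0, 68.8, and 51.4 CPM in the mocetinostat samples. Each mocetinostat sample was thus more than the highest DMSO sample, and DMSO replicate 2 was the lowest of the 6. The mean was 17.9 ± 4.79 CPM (SD, n = 3) with DMSO and 61.4 ± 8.99 CPM with mocetinostat, a 3.32-fold increase (log2 1.73, SE 0.16, adjusted p = 1.02e-15). Under the alternative settings its log2 fold change was between 1.48 and 2.27.

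*MAP1LC3A*, an LC3 protein of the same family, was at 17.8, 21.0, and 18.6 CPM with DMSO and at 34.5, 33.5, and 29.4 CPM with mocetinostat, a 1.72-fold increase (log2 0.78, SE 0.17, adjusted p = 7.26e-05). *MAP1LC3B*, the LC3 protein most used as a marker of autophagosomes, was at 115, 112, and 102 CPM and at 166, 175, and 142 CPM, a 1.47-fold increase (log2 0.55, SE 0.10, adjusted p = 1.15e-06). The conditions were fully apart for both. *GABARAPL2* was at 64.7 to 74.8 CPM with DMSO and 66.3 to 84.1 CPM with mocetinostat, and these ranges overlapped (log2 0.12, SE 0.12, adjusted p = 0.398). *GABARAP* was measured on only 38, 17, and 33 counts in the DMSO samples and on 15, 9, and 10 in the treated samples. Its log2 fold change of -0.0081 had a standard error of 0.41 (adjusted p = 0.989), so that only a large difference could have been seen at this depth. Exons of a gene on the same strand that had 0 counts in every sample cover 35.4% of its exons, and how reads shared by such genes were counted is not given in the sources used here. *MAP1LC3B2*, a near-identical copy of *MAP1LC3B*, had 1 to 5 counts per sample, so reads that could belong to either copy are uncertain.

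**Figure D2:**
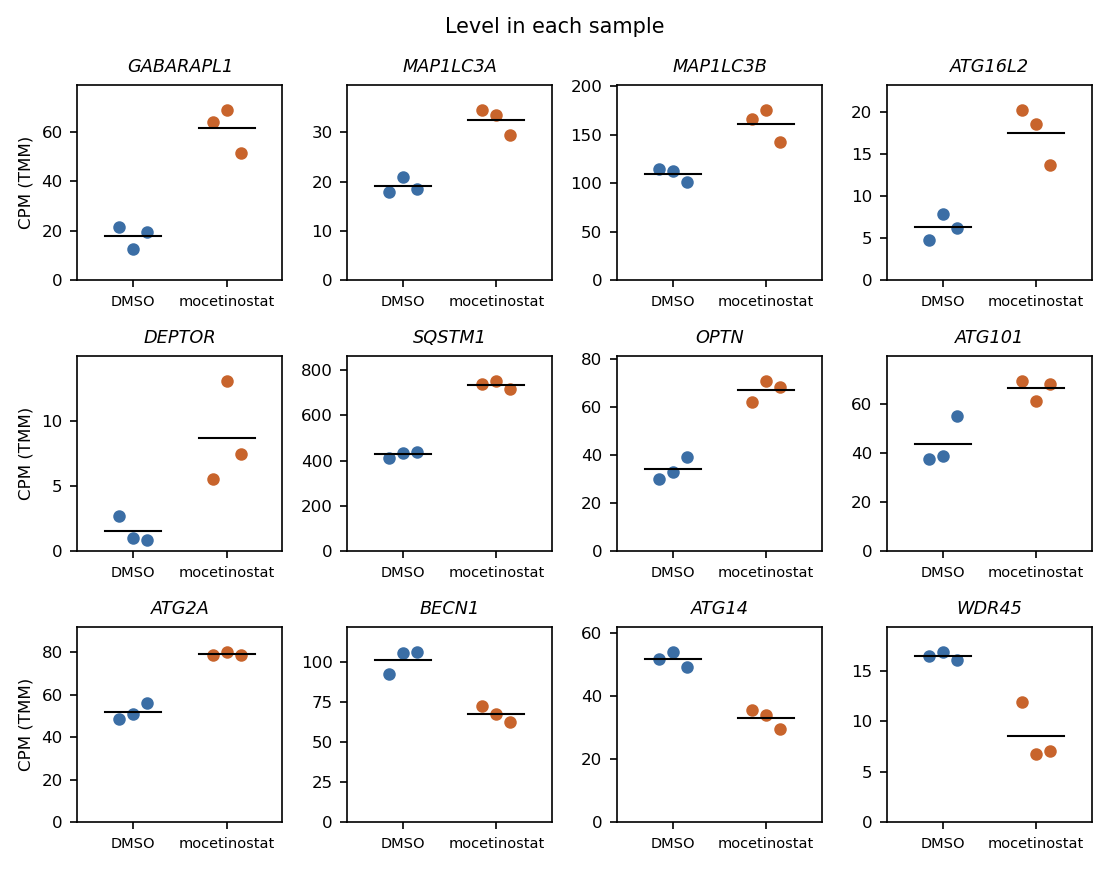
Level in CPM (TMM) of 12 autophagy genes in each sample (points, left to right replicates 1 to 3), with a line at the mean of the 3 samples of each condition and linear axes from 0. All 12 were taken from the 28 members whose samples did not overlap (65.1% of 43, against 66.5% of all genes tested), of which 15 were higher and 13 lower. Of the 12 shown, *BECN1*, *ATG14*, and *WDR45* are lower with mocetinostat, and the other 9 genes are higher.

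Divided by exon length, the ATG8 genes can be compared with each other roughly. The length is that of all annotated exons of a gene together, not of the transcript expressed. The uncertain reads of *GABARAP* and *MAP1LC3B* also enter these levels and shares. With DMSO, *GABARAPL2* (23.0 CPM per kb of exon), *MAP1LC3B* (21.8), and *MAP1LC3A* (16.6) were the most abundant, *GABARAPL1* was at 4.42, and *GABARAP* at 2.02. With mocetinostat the order was *MAP1LC3B* (32.0), *MAP1LC3A* (28.2), *GABARAPL2* (24.9), *GABARAPL1* (15.2), and *GABARAP* (2.17). *GABARAPL2* thus changed from the highest of the 5 to the third, although in both conditions its error range overlapped that of a neighbor in the order. *GABARAPL1* made up 6.52% ± 1.72 (SD, n = 3) of the summed level per kb of the 5 genes with DMSO and 14.8% ± 1.48 with mocetinostat, and the share of *GABARAPL2* was 33.9% ± 1.31 and 24.4% ± 4.14. The share of *MAP1LC3B* differed by less than the spread between replicates (32.1% ± 0.958 and 31.2% ± 1.86).

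**Figure D3:**
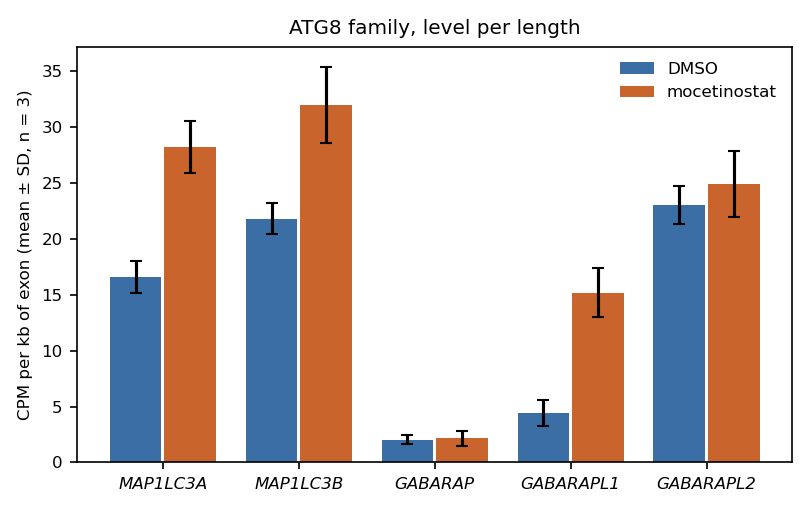
Level of the 5 ATG8 family genes in CPM per kb of exon, shown as bars for the mean with the SD of 3 samples in each condition, on an axis from 0. The length is that of all annotated exons of a gene together, so the order of the genes is approximate. *GABARAPL1* goes from 4.42 to 15.2, while the error bars of the conditions overlap for *GABARAPL2* (23.0 and 24.9) and *GABARAP* (2.02 and 2.17).

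The bases just before the RefSeq start of 3 members are shown, of which *GABARAPL1* and *MAP1LC3B* rose and *ATG14* fell. A different short motif is marked in each, although the windows of *GABARAPL1* and *MAP1LC3B* both also hold the GC box GGGCGG, which is not marked. RefSeq promoters of GRCh38.p14 were matched for 37 of the 43 members, with 46 windows that run from 250 bases before to 50 after the start. They were searched on both strands for 7 motifs, which were chosen after the expression values were known. Each line gives the 100 bases before the start, 5′ to 3′ on the strand of the gene, with the motif in capitals. The coordinates are chr12:10212777-10212876 (plus strand) for *GABARAPL1*, chr16:87392236-87392335 (plus strand) for *MAP1LC3B*, and chr14:55411831-55411930 (minus strand) for *ATG14*.
GABARAPL1: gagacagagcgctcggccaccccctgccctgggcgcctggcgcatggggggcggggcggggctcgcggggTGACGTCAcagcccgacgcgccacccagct
MAP1LC3B: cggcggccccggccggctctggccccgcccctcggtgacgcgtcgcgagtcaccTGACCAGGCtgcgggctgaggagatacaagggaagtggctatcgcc
ATG14: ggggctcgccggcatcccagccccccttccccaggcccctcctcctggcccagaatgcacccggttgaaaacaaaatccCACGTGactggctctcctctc
The capitals mark the cAMP response motif TGACGTCA in *GABARAPL1*, an antioxidant response motif (TGACNNNGC) in *MAP1LC3B*, and an E-box (CACGTG) in *ATG14*. TGACGTCA was found in 1 of the 46 member windows (2.17%) and in 1.85% of all 35116 windows, TGACNNNGC in 4 (8.70%) and 13.3%, and CACGTG in 4 (8.70%) and 7.26%. The other members with TGACNNNGC were *ATG101*, which rose, and *ULK3* and *CALCOCO2*, which did not pass the test. The other members with CACGTG were *ATG3*, *BNIP3*, and *ULK3*, and none of them passed the test. The longer CLEAR motif TCACGTGA, which contains the E-box, was in 1 member window, that of *ATG3*, and in 0.98% of all windows. The forkhead motif GTAAACA was in 2 member windows (4.35%) and 3.42% of all windows, and CCAAT in 15 (32.6%) and 34.6%. The GC box GGGCGG was in 31 member windows (67.4%) and 45.0% of all windows. A match describes letters in a window and does not show a bound site.

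Among the 6 genes of the initiation complex 1 rose and 1 fell (16.7% each, against 32.9% and 31.4% of all genes tested). *ATG13*, the adaptor that links the ULK1 kinase to its partners, was at 66.5, 62.3, and 54.4 CPM with DMSO and at 42.0, 37.8, and 36.1 CPM with mocetinostat. Every mocetinostat sample lay under every DMSO sample, and the level fell by 0.64 on the log2 scale (SE 0.13, adjusted p = 2.56e-05), a 1.56-fold decrease. *ATG101*, which binds and stabilizes *ATG13* protein, went the other way, at 37.8, 38.9, and 55.0 CPM with DMSO and 69.4, 61.4, and 68.4 CPM with mocetinostat. DMSO replicate 3 was nearest to the treated samples but under all of them, and the log2 fold change was 0.61 (SE 0.13, adjusted p = 5.67e-05). An unnamed gene on the opposite strand covers 19.2% of its exons and had 0 counts in every sample.

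The kinases themselves did not pass the test. *ULK1* was at 59.3 to 63.8 CPM with DMSO and 42.7 to 68.2 CPM with mocetinostat (log2 -0.12, adjusted p = 0.446), with mocetinostat replicates 3 and 2 as the lowest and highest of all 6 samples. *ULK2*, its close relative, was lower in every mocetinostat sample (23.5 to 27.2 CPM) than in every DMSO sample (31.7 to 35.2 CPM), but its log2 fold change of -0.33 had an adjusted p of 0.071. *ULK3*, a more distant kinase of the family, had a log2 fold change of -0.0089 (adjusted p = 0.965). *RB1CC1*, the large scaffold of the complex (FIP200), was at 109 to 135 CPM with DMSO and 118 to 128 CPM with mocetinostat (log2 0.05, adjusted p = 0.684).

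In the nucleation complex all 6 genes had a negative log2 fold change, with a median of -0.45, and 5 of the 6 fell (83.3%, against 31.4% of all genes tested). Per *GAPDH*, however, 0 fell (against 9.82% of all genes tested) and 3 turned positive. The complex makes the lipid phosphatidylinositol 3-phosphate on the membrane. *BECN1* (Beclin 1), its regulatory core, was at 92.4, 105, and 106 CPM with DMSO and at 72.6, 67.5, and 62.6 CPM with mocetinostat. The lowest DMSO sample exceeded the highest mocetinostat sample, and the level fell by 0.57 on the log2 scale (SE 0.11, adjusted p = 1.21e-05), or 1.48-fold. *ATG14*, the subunit that directs the complex to autophagy, was at 51.7, 53.9, and 49.1 CPM with DMSO and at 35.7, 34.1, and 29.4 CPM with mocetinostat (log2 -0.63, SE 0.14, adjusted p = 7.66e-05). *UVRAG*, which replaces *ATG14* in the form of the complex that acts on endosomes, was at 34.8, 27.7, and 31.1 CPM and at 20.8, 21.1, and 22.8 CPM (log2 -0.55, SE 0.17, adjusted p = 0.00415). For *ATG14* and *UVRAG* alike, every treated sample lay under every control.

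*PIK3C3*, the catalytic lipid kinase VPS34, was at 53.8 to 58.9 CPM with DMSO and 43.4 to 46.4 CPM with mocetinostat (log2 -0.32, adjusted p = 0.0306). *AMBRA1*, an activator that binds *BECN1* protein, had a similar log2 fold change of -0.34 (adjusted p = 0.0363). *PIK3R4*, the VPS15 scaffold, was at 74.7 to 92.9 and 73.9 to 79.3 CPM, with overlap (log2 -0.15, adjusted p = 0.275). The count of 5 depended on the processing: 3 members were lower with DESeq2, with at least 10 counts in every sample, without DMSO replicate 2, and without mocetinostat replicate 1, 4 without mocetinostat replicate 3, 6 without the expression filter, and 0 with the libraries thinned to equal depth. The genes that turned positive per *GAPDH* were *PIK3C3*, *PIK3R4*, and *AMBRA1*. Of the exons of *BECN1* 12.4% are shared with *CNTD1*, and of those of *ATG14* 20.8% with *FBXO34*, both on the other strand, and whether the counting used strand is not given in the sources used here.

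Of the 6 genes for lipid transfer and WIPI proteins, 1 rose (16.7%, against 32.9% of all genes tested) and 3 fell (50.0%, against 31.4%). *ATG2A*, which carries lipid from the endoplasmic reticulum to the growing membrane, was at 48.8, 51.0, and 56.0 CPM with DMSO and at 78.7, 79.9, and 78.7 CPM with mocetinostat. The treated samples lay close together and above all controls, and the increase was 1.53-fold (log2 0.61, SE 0.12, adjusted p = 1.12e-05). Its paralog *ATG2B* was at 37.6 to 45.5 and 35.7 to 40.2 CPM and did not pass the test (log2 -0.14, adjusted p = 0.392). *ATG9A*, the membrane protein of the vesicles that seed the autophagosome, was at 55.3, 56.2, and 50.8 CPM with DMSO and at 33.9, 49.6, and 44.3 CPM with mocetinostat (log2 -0.40, adjusted p = 0.0099). Mocetinostat replicate 1 was the lowest, and without it the adjusted p no longer passed (log2 -0.22), nor did it with DESeq2 or with thinned libraries. A gene on the same strand that held at most 2 counts in any sample covers 38.8% of the exons of *ATG9A*.

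WIPI proteins bind the lipid made by the nucleation complex. *WIPI2*, which recruits the conjugation machinery, was at 96.2 to 102 CPM with DMSO and 67.0 to 76.3 CPM with mocetinostat (log2 -0.48, adjusted p = 0.000147). *WDR45* (WIPI4), a partner of ATG2 proteins, was at 16.5, 16.9, and 16.1 CPM with DMSO and at 11.9, 6.82, and 7.05 CPM with mocetinostat. Its log2 fold change of -0.82 was the lowest of the 43 members (SE 0.24, adjusted p = 0.00214), and without mocetinostat replicate 1, the highest of the treated samples, it was -1.25 and passed the fold threshold too. *WIPI1* was higher in every mocetinostat sample (23.2 to 23.6 CPM) than in every DMSO sample (17.4 to 22.9 CPM), but did not pass the test (log2 0.30, adjusted p = 0.156). Per *GAPDH*, *ATG9A* and *WIPI2* had positive values (0.14 and 0.052), *ATG2B* was at 0.40, and *ATG13*, *BECN1*, *ATG14*, *UVRAG*, and *WDR45* stayed negative without passing the test.

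In the conjugation machinery 3 of 11 genes rose (27.3%, against 32.9% of all genes tested) and 0 fell (against 31.4%). At an unadjusted p under 0.05, 2 were lower with edgeR and 0 with DESeq2. *ATG16L2* (ENSG00000168010, chr11:72814406-72843674, plus strand), a relative of the scaffold *ATG16L1* whose role in autophagy is less clear, was at 4.79, 7.91, and 6.19 CPM with DMSO and at 20.2, 18.6, and 13.7 CPM with mocetinostat. All treated samples lay above all controls, with mocetinostat replicate 3 the nearest to them. Its mean rose from 6.30 ± 1.56 to 17.5 ± 3.41 CPM (SD, n = 3), a 2.91-fold increase (log2 1.54, SE 0.26, adjusted p = 3.52e-07). *ATG16L1*, the scaffold that determines where ATG8 proteins are attached, was at 53.1 to 59.1 and 38.9 to 58.4 CPM (log2 -0.22, adjusted p = 0.153), and the samples overlapped. Without mocetinostat replicate 3, the highest treated sample, it passed the test as lower (log2 -0.39), as it did without the filter.

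The protease *ATG4A*, which trims ATG8 proteins before they are attached, was at 7.52 to 12.8 CPM with DMSO and 13.3 to 16.2 CPM with mocetinostat (log2 0.56, SE 0.24, adjusted p = 0.0376). *ATG5*, which is joined to *ATG12* protein, was at 47.5 to 53.1 and 59.7 to 63.8 CPM (log2 0.30, SE 0.13, adjusted p = 0.0358). Neither call held throughout, since, glmTreat aside, *ATG4A* failed the test under 7 alternatives and *ATG5* under 8, each of them including DESeq2 and the fit without DMSO replicate 2. The other proteases, *ATG4B*, *ATG4C*, and *ATG4D*, had log2 fold changes of 0.11, 0.09, and 0.10 with adjusted p from 0.471 to 0.734. The E2-like enzyme *ATG3* was at 80.2 to 106 and 89.9 to 104 CPM (log2 0.13, adjusted p = 0.301).

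Further members of the conjugation system missed the threshold although their samples did not overlap. *ATG10*, the other E2-like enzyme, was at 6.51 to 7.29 CPM with DMSO and 9.12 to 11.8 CPM with mocetinostat (log2 0.56, SE 0.29, adjusted p = 0.0808). *ATG7*, the E1-like enzyme that activates both conjugation reactions, was at 30.6 to 33.3 and 21.7 to 28.2 CPM (log2 -0.34, adjusted p = 0.0656), and *ATG12* at 50.8 to 55.5 and 39.0 to 50.4 CPM (log2 -0.27, adjusted p = 0.0683). Without mocetinostat replicate 1, *ATG7* and *ATG12* did pass the test as lower, and per *GAPDH* their log2 values were 0.20 and 0.26.

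Cargo receptors bind ubiquitin-tagged material and ATG8 proteins at the same time. Of 5 receptors 2 rose, 1 fell, and 2 did not pass the test, and of all genes tested 32.9% rose and 31.4% fell. *SQSTM1* (p62, ENSG00000161011, chr5:179806398-179838078, plus strand), the best-known receptor, was at 414, 432, and 437 CPM with DMSO and 737, 751, and 716 CPM with mocetinostat. The replicates were close together and the conditions far apart, and the mean went from 428 ± 12.5 to 735 ± 17.8 CPM (SD, n = 3), a 1.72-fold increase (log2 0.78, SE 0.07, adjusted p = 7.57e-16). Its log2 fold change ranged from 0.53 to 1.31 over the alternatives, and it passed the test in each except glmTreat, which tests against the fold threshold itself. *MRNIP* on the opposite strand covers 21.0% of its exons.

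*OPTN*, a receptor for damaged mitochondria and bacteria, was at 29.9, 33.1, and 39.1 CPM with DMSO and at 61.9, 70.6, and 68.4 CPM with mocetinostat. The conditions were apart, and the 1.96-fold increase was just under the fold threshold of the study (log2 0.97, SE 0.13, adjusted p = 2.45e-09), which it passed per *GAPDH*, with thinned libraries, when only genes with 10 or more counts in all samples were kept, without DMSO replicate 3, and without mocetinostat replicate 1. *NBR1*, a receptor that acts together with *SQSTM1* protein, was at 125, 102, and 134 CPM and at 99.3, 85.5, and 101 CPM (log2 -0.33, SE 0.11, adjusted p = 0.00613), and per *GAPDH* its value was 0.21. The samples of *NBR1* only just failed to overlap. *CALCOCO2* (NDP52) was at 68.0 to 76.8 and 70.9 to 89.0 CPM (log2 0.12, adjusted p = 0.372), and *TAX1BP1*, its relative, at 67.8 to 76.9 and 67.1 to 73.0 CPM (log2 -0.07, adjusted p = 0.648).

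The related mitophagy receptors of the outer mitochondrial membrane are best known as genes induced by low oxygen. *BNIP3L* (NIX) was at 95.4, 79.3, and 93.9 CPM with DMSO and at 123, 105, and 114 CPM with mocetinostat. The conditions did not overlap, and the increase was 1.28-fold (log2 0.36, SE 0.11, adjusted p = 0.00256). The call was lost without the filter, with thinned libraries, without DMSO replicate 2, and without mocetinostat replicate 1. *BNIP3* was at 31.9 to 39.1 and 34.0 to 36.5 CPM, so that every treated sample lay within the range of the controls (log2 0.012, SE 0.15, adjusted p = 0.951).

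The 2 inhibitors of mTOR both rose (100%, against 32.9% of all genes tested). *DEPTOR*, a subunit of the mTOR complexes that lowers their activity, was at 2.71, 1.04, and 0.884 CPM with DMSO and at 5.55, 13.01, and 7.46 CPM with mocetinostat, from 30, 5, and 6 reads and 28, 21, and 18 reads. DMSO replicate 1 was the highest control and mocetinostat replicate 2 the highest of all. The 4.68-fold increase had the largest log2 fold change and the largest standard error of the members (log2 2.23, SE 0.45, adjusted p = 1.18e-05). It was 5.09 with thinned libraries, 3.03 without DMSO replicate 1, and between 1.87 and 3.03 when any single sample was left out. *DDIT4* (REDD1), which restrains mTORC1 under stress, was at 28.7, 27.3, and 39.5 CPM and at 41.4, 47.7, and 46.4 CPM (log2 0.49, SE 0.15, adjusted p = 0.00384), with DMSO replicate 3 close to the treated samples. It did not pass with DESeq2, without the filter, with thinned libraries, or without DMSO replicate 2.

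To compare close relatives, the ratio of raw counts of related genes within each sample was computed for 9 pairs, which were chosen after the values above had been seen. Such a ratio needs no scaling between libraries, but it is not corrected for gene length, so that only its change can be read. The ratio of *GABARAPL1* to *GABARAPL2* was 0.289, 0.183, and 0.303 with DMSO and 0.864, 1.04, and 0.611 with mocetinostat. That of *ATG16L2* to *ATG16L1* was 0.087, 0.134, and 0.117 with DMSO and 0.520, 0.375, and 0.234 with mocetinostat. Both ratios were higher in every treated sample, with log2 differences of 1.70 and 1.69. *SQSTM1* to *NBR1* was at 3.31, 4.25, and 3.28 and at 7.42, 8.78, and 7.11 (log2 1.11), and *ATG2A* to *ATG2B* at 1.07, 1.20, and 1.49 and at 2.21, 2.02, and 1.96 (log2 0.73). The remaining ratios without overlap were *OPTN* to *CALCOCO2* (log2 0.89), *BNIP3L* to *BNIP3* (0.34), and *MAP1LC3A* to *MAP1LC3B* (0.21). Samples overlapped for *ULK1* to *ULK2* and *ATG4A* to *ATG4B*. Of all single genes tested, 66.5% did not overlap, and no such share is given here for pairs of genes. For the 7 pairs without overlap the exact two-sided permutation test gave p = 0.1, the smallest that 3 samples against 3 allow, and 0.129 adjusted over the 9 pairs, so this design cannot reach 0.05 here.

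**Figure D4:**
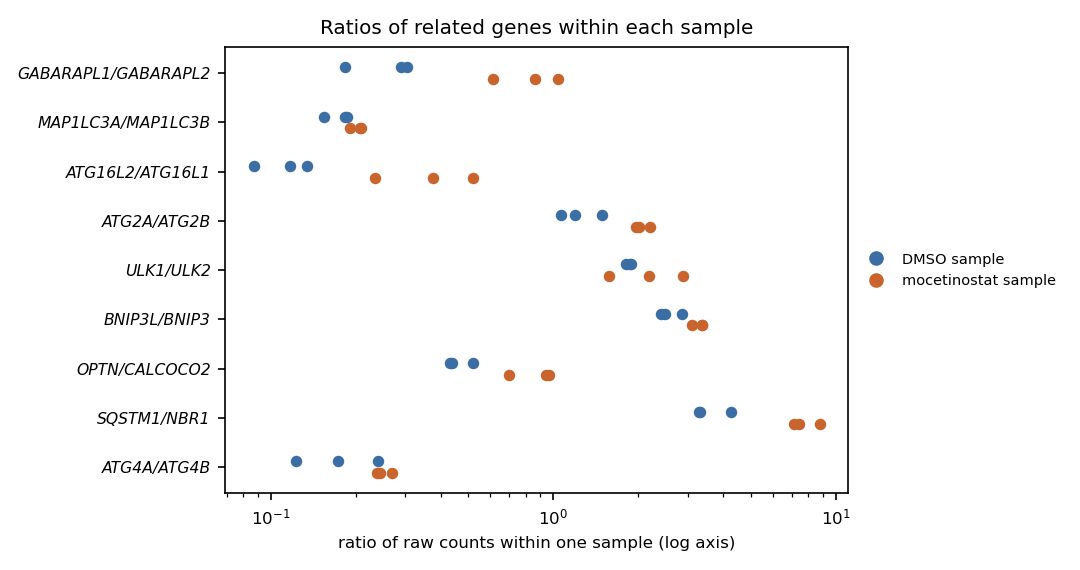
Ratio of the raw counts of related autophagy genes within each sample (points, 3 per condition) on a log axis, not corrected for length. The conditions are apart for 7 of the 9 pairs and overlap for *ULK1* to *ULK2* and *ATG4A* to *ATG4B*. The pairs were chosen after the values of their genes had been seen, and 66.5% of all single genes tested did not overlap.

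A further list of 30 genes held other regulators and receptors of autophagy, of which 25 passed the filter. Of these 9 rose (36.0%, against 32.9% of all genes tested) and 9 fell (36.0%, against 31.4%). By the thresholds of the study 4 were upregulated (16.0%, against 20.2%), and 0 were downregulated with edgeR, against 1 (*PHB2*) with DESeq2. *RETREG1* (FAM134B), a receptor for the degradation of endoplasmic reticulum, was at 1.27, 1.87, and 1.03 CPM with DMSO and at 20.4, 20.5, and 20.7 CPM with mocetinostat (log2 3.92, SE 0.33, adjusted p = 2.16e-17). *FYCO1*, which couples autophagosomes to motor proteins, was at 65.0 to 78.1 and 159 to 178 CPM (log2 1.26, SE 0.10, adjusted p = 5.18e-18). *TMEM41B*, a lipid scramblase needed for the early membrane, had a log2 fold change of 1.12 (adjusted p = 4.41e-12). *RUBCNL* (Pacer) had only 6, 4, and 4 reads in the DMSO samples and 21, 4, and 13 in the treated samples (log2 2.68, SE 0.57, adjusted p = 3.25e-05).

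Another receptor for endoplasmic reticulum, *RTN3*, rose to a mean of 184 CPM from 98.2 CPM (log2 0.90, adjusted p = 5.58e-13). *PHB2*, a mitochondrial prohibitin that serves as a mitophagy receptor, was at 308 to 333 CPM with DMSO and 160 to 164 CPM with mocetinostat, and its decrease lay just inside the threshold of the study (log2 -0.9998, SE 0.08, adjusted p = 3.15e-17). The ATG8 gene *MAP1LC3C* was too low to test, with 0, 0, and 1 reads in the DMSO samples and 4, 1, and 3 in the treated samples.

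For the fusion of autophagosomes with lysosomes, 12 of 13 genes were tested, 3 rose (25.0%, against 32.9% of all genes tested), and 2 fell (16.7%, against 31.4%). *SNAP29*, a SNARE protein of this fusion step, was at 34.0, 33.1, and 46.1 CPM with DMSO and at 80.7, 75.0, and 91.6 CPM with mocetinostat (log2 1.13, SE 0.13, adjusted p = 9.15e-12). Subunits of the HOPS tethering complex went both ways, and *VPS41* (log2 0.06, adjusted p = 0.684) and *VPS33A* (log2 -0.43, adjusted p = 0.103) did not pass the test. Of the 8 tested genes listed with this complex, 2 rose and 2 fell (25.0% each, against 32.9% and 31.4% of all genes tested). *VPS11*, a core subunit, was downregulated, at 36.9 to 40.0 and 9.92 to 17.4 CPM (log2 -1.29, SE 0.18, adjusted p = 3.40e-09), and *VPS39* had a log2 fold change of -0.46 (adjusted p = 0.00148, 0.08 per *GAPDH*), whereas *VPS16* (0.52, adjusted p = 0.000819) and *VPS18* (0.44, adjusted p = 0.00129) rose.

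Of 33 upstream kinases, their regulators, and transcription factors, 32 were tested, 11 rose (34.4%, against 32.9% of all genes tested), and 8 fell (25.0%, against 31.4%). By the thresholds of the study 7 were upregulated (21.9%, against 20.2%) and 3 downregulated (9.38%, against 8.18%). The 3 downregulated genes were subunits or substrates of mTORC1, the kinase complex that *DEPTOR* protein inhibits. *AKT1S1* (PRAS40) was at 163, 193, and 203 CPM with DMSO and at 61.1, 40.3, and 52.2 CPM with mocetinostat (log2 -1.80, SE 0.11, adjusted p = 2.47e-23). *RPTOR* (Raptor), which brings substrates to the kinase, was at 109 to 137 and 46.2 to 49.3 CPM (log2 -1.41, SE 0.12, adjusted p = 3.43e-17), and *MLST8* had a log2 fold change of -1.11 (adjusted p = 5.07e-10). *RRAGA*, a GTPase that activates mTORC1 at the lysosome, moved the other way (log2 1.06, SE 0.11, adjusted p = 6.56e-13), as did *TBC1D7*, a subunit of the inhibitory TSC complex (log2 1.00, SE 0.17, adjusted p = 4.30e-07). The other subunits of that complex fell, *TSC2* with a log2 fold change of -0.96 (adjusted p = 1.31e-11) and *TSC1* with -0.29 (adjusted p = 0.0142), which per *GAPDH* was 0.25.

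*SESN3*, a sestrin that restrains mTORC1, had 3, 6, and 0 reads in the DMSO samples and 178, 75, and 80 in the treated samples, and was at 33.2 to 46.5 CPM after treatment (log2 6.47, SE 0.36, adjusted p = 1.54e-26). *SESN1* (0.28, adjusted p = 0.355), *SESN2* (-0.23, adjusted p = 0.32), and *TRIB3* (-0.035, adjusted p = 0.849) did not pass the test. Of the 7 genes tested that were listed as restraining mTORC1, 2 rose and 2 fell (28.6% each, against 32.9% and 31.4% of all genes tested). These 7 did not include *AKT1S1*, which was listed with the mTORC1 complex and fell, or the members *DEPTOR* and *DDIT4*. *PRKAA2*, a catalytic subunit of the energy sensor AMPK, had 3, 1, and 1 reads with DMSO and 56, 22, and 22 after treatment, a ratio per depth of 49.6 with a 95% interval of 20.6 to 156 for counting error only (log2 5.52, adjusted p = 2.80e-14). The other catalytic subunit, *PRKAA1*, fell from a mean of 103.4 to 69.2 CPM (log2 -0.60, SE 0.12, adjusted p = 5.41e-06), and per *GAPDH* its value was -0.06. The transcription factors *FOXO1* (log2 2.39, adjusted p = 3.63e-10), *MITF* (log2 1.81, adjusted p = 5.16e-13), and *FOXO4* (log2 1.42, adjusted p = 1.55e-06), which are known to activate autophagy genes, were upregulated. Of other known activators, *TFE3* fell (log2 -0.34, adjusted p = 0.0108, 0.19 per *GAPDH*), and *TFEB* (0.54, adjusted p = 0.24), *FOXO3* (0.21, adjusted p = 0.136), and *ATF4* (0.06, adjusted p = 0.502) did not pass the test, although these 3 were higher per *GAPDH*. Also among the transcription factors of the list, *HIF1A* rose from a mean of 613 to 972 CPM (log2 0.66, adjusted p = 8.87e-14). *ZKSCAN3*, which was not counted among the known activators above, also had a higher level (log2 0.59, adjusted p = 0.0154). *DDIT4L*, a relative of *DDIT4*, was too low to test, with 0, 0, and 1 reads in the controls and 3, 3, and 9 in the treated samples.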

How the data were processed

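RNA-Seq was performed on TC28a2 cells treated with mocetinostat or DMSO, with 3 samples per condition. The authors deposited 1 table of raw counts of reads per gene. Per the study's methods and the submitters' processing notes, reads were trimmed, cleared of ribosomal RNA, aligned to GRCh38 with STAR 2.6.1d, and assigned to genes with featureCounts 1.6.4; strand setting and multimapped reads are not given in the sources used here. The authors' test, DESeq2 1.20.0, was not used for the main values.

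Counts were scaled by TMM in edgeR 4.0.16 (limma 3.58.1, R 4.3.3), filtered with filterByExpr (minimum count 10, which kept 13966 of 60623 genes), and tested with its quasi-likelihood test on treatment alone, with Benjamini-Hochberg adjustment over all genes tested. The script was tested on simulated data. Totals per sample ran from 1619344 to 11031132 counts, and replicates differed by more than sampling noise (chi-square per degree of freedom 1.96 to 7.19). The alternatives were DESeq2 1.42.0, RLE factors, library size only, *GAPDH* scaling, the unfiltered table, only genes with 10 or more counts in all samples, edgeR's glmTreat, the replicate number as a block, thinning of every library to 1619344 counts, and leaving out single samples.

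The members and gene lists were chosen with earlier results of these data known. All 43 members are named, with every sample's value for those past the thresholds (adjusted p under 0.05, absolute log2 fold change over 1) and the smallest p of each role; of each further list, up to 4 genes with the smallest p and those past the thresholds are named. *VPS39*, *VPS41*, *VPS33A*, *TSC1*, *TSC2*, *SESN1*, *SESN2*, *TRIB3*, *PRKAA1*, *TFE3*, *TFEB*, *FOXO3*, *ATF4*, *HIF1A*, *ZKSCAN3*, *MAP1LC3C*, *DDIT4L*, and *MAP1LC3B2* were added after their values were seen. Exon lengths and overlaps are from GENCODE 44, to which 99.5% of genes matched by identifier. Python 3.11.15 with pandas 2.3.3, scipy 1.17.1, and matplotlib 3.10.9 was used for summaries.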

Additional observations from a re-analysis of the deposited data

How the results depend on the processing

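*GABARAPL1* and *ATG16L2* passed the thresholds of the study in every alternative run, and *DEPTOR* in every alternative but the minimum of 10 counts, which removed it. Of the members, 29 rose and 0 fell per *GAPDH*, with 12 upregulated, 18 fell without the filter, with 1 downregulated, and with libraries thinned to equal depth 1 fell and 5 were upregulated. Leaving out single samples gave 0 to 1 downregulated members (*WDR45* without mocetinostat replicate 1). Among further autophagy genes, 15 rose and 2 fell per *GAPDH*, and 5 rose and 5 fell with thinned libraries. Among fusion genes, 8 rose and 1 fell per *GAPDH*, 1 rose and 5 fell without the filter, and 1 rose and 1 fell with thinned libraries. Of the upstream genes, 22 rose and 4 fell per *GAPDH*, and 5 fell with thinned libraries. Per *GAPDH*, 55.2% of all 13966 genes tested were higher, 9.82% were lower, and 4425 were upregulated. The shares of all genes without the filter or with thinned libraries are not given here, so those counts cannot be set against them. Fitted without the filter, the genes tested above moved by -0.25 in their median log2 value. The direction turned per *GAPDH* for *ULK1* (0.42), *ULK2* (0.21), *ULK3* (0.53), *PIK3C3* (0.22), *PIK3R4* (0.39), *AMBRA1* (0.20), *ATG2B* (0.40), *ATG9A* (0.14), *WIPI2* (0.052), *ATG7* (0.20), *ATG12* (0.26), *ATG16L1* (0.32), *GABARAP* (0.53), *NBR1* (0.21), and *TAX1BP1* (0.47). Without the filter it turned for *RB1CC1* (-0.20), *ATG3* (-0.12), *ATG4B* (-0.14), *ATG4C* (-0.16), *ATG4D* (-0.15), *GABARAPL2* (-0.14), *CALCOCO2* (-0.13), and *BNIP3* (-0.24), of which none had passed the test. Values near 0 also turned for *ULK3* with RLE factors (0.0095), library size only (0.0062), at least 10 counts in every sample (0.0701), and thinning (0.0558), for *GABARAP* with DESeq2 (0.0072), RLE factors (0.0106), and library size only (0.0078), for *TAX1BP1* with at least 10 counts in every sample (0.0141), and for *BNIP3* with DESeq2 (-0.0264). Thinning gave 0.32 for *PIK3R4* and -0.21 for *ATG4B*. When single samples were left out, values ran from -0.25 to 0.027 for *ULK1*, from -0.0937 to 0.0384 for *ULK3*, from -0.0331 to 0.15 for *RB1CC1*, from -0.0058 to 0.14 for *ATG4C*, from -0.22 to 0.26 for *GABARAP*, from -0.0164 to 0.18 for *CALCOCO2*, and from -0.0742 to 0.0746 for *BNIP3*. The cause of these changes was not tested. The samples share only replicate numbers (correlations of their deviations 0.00779, 0.0116, and -0.0162), and with the replicate block 13 members rose, 10 fell, and 3 were upregulated, as without it, while *GABARAP* went to 0.0234.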
